A study of Mus musculus with 10 samples.

Results

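The Notch pathway was followed through 10 of the 24525 genes in the expression table, chosen by symbol: the receptors Notch1, Notch2, Notch3 and Notch4, the ligands Dll1, Dll4, Jag1 and Jag2, and the target genes Hes1 and Hey1. RNA sequencing measured them in 5 tumours of the large bowel and in 5 pieces of tissue beside tumours. The samples come from male C57BL/6 mice, 7 weeks old at the start, that received 1 dose of the mutagen azoxymethane (AOM, 12.5 mg/kg) and then 3 cycles of DSS (dextran sulfate sodium), an agent that damages the gut lining and provokes colitis. A cycle lasted 3 weeks, with 2% DSS in the drinking water for 5 days and plain water for 16 days. Tissue is labelled as 10 weeks after AOM in both groups. Adjacent tissue had therefore seen the same AOM and DSS as the tumours, and no library is labelled as coming from the 3 untreated mice of the study. All 10 libraries carry 1 and the same mouse in their source label although the study treated 12, so which libraries share an animal cannot be read from the labels, and the spread behind each p-value may be technical.

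In Notch signalling a ligand on 1 cell binds a receptor on its neighbour. Metalloproteases and then gamma-secretase cut the bound receptor, and the freed intracellular domain enters the nucleus, where with Rbpj and Mastermind proteins it switches on target genes such as those of the Hes and Hey families of repressors. In the intestinal crypt, Notch1 and Notch2 with the ligands Dll1 and Dll4 keep stem and progenitor cells from the secretory fate, in part because Hes1 represses Atoh1, the factor that starts goblet and enteroendocrine differentiation. In blood vessels, Notch1, Notch4, Dll4 and Jag1 act in endothelial cells, Hey1 is an endothelial target, and Notch3 is the main receptor of pericytes and vascular smooth muscle.

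Tumours had higher levels of the receptors Notch1, Notch2 and Notch3, of the ligands Jag2 and Dll4 and of the target gene Hey1, and in these 6 genes every tumour lay above every adjacent sample. Mean levels in tumours were 3.16 times those of adjacent tissue for Notch1, 3.98 times for Notch2, 3.41 times for Notch3, 1.97 times for Dll4, 3.73 times for Jag2 and 7.07 times for Hey1. Notch4 was 1.54 times higher, with overlapping groups. Dll1, Jag1 and Hes1 did not pass the test, with ratios of 0.872, 1.19 and 1.15. Levels are in FPKM, fragments per kilobase of transcript scaled to the library's mapped fragments, which sets genes of different length on 1 scale.

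**Figure D1:**
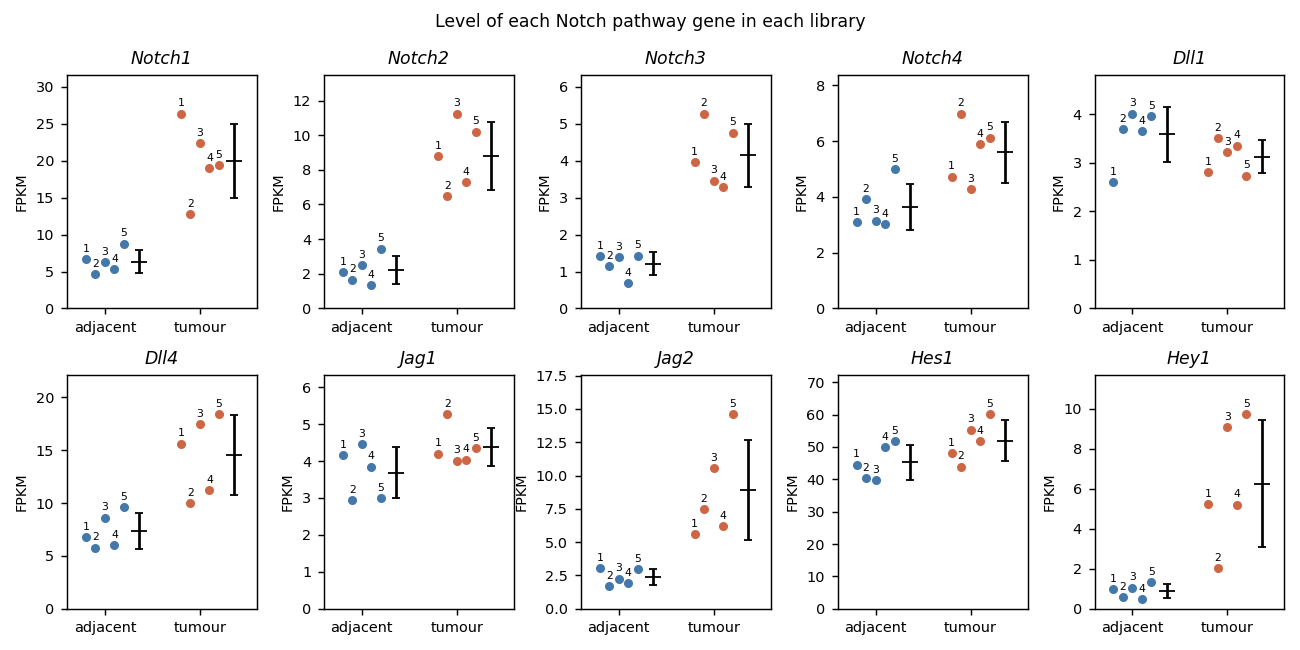
FPKM (y axis, from 0, scaled per gene) of the 10 genes in 5 adjacent (blue) and 5 tumour (orange) libraries, each point numbered as in its label, with the mean and SD of each group as a bar beside it. For Notch1, Notch2, Notch3, Dll4, Jag2 and Hey1 the lowest tumour lies above the highest adjacent sample, while the groups overlap for Notch4, Dll1, Jag1 and Hes1.

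Changes were tested with limma on log2(FPKM + 1), tumour minus adjacent, over the 13016 genes whose mean over the 10 libraries reached 1 FPKM, and p-values were adjusted over all of them by the Benjamini-Hochberg method. The words rose and fell are kept for an adjusted p below 0.05. All 10 genes passed the filter on low values. Of them 7 rose (Notch1, Notch2, Notch3, Notch4, Dll4, Jag2 and Hey1), where 57.2% of all genes tested rose, and 0 fell by limma's adjusted p or at an unadjusted p under 0.05, where 19.3% of all genes fell. Groups without overlap, tumour above adjacent, occurred for 6 of the 10, against 46.5% of all genes tested. Rising was thus common in this comparison. The median change was 1.05 for the 10 genes and 0.35 for all genes tested, so the typical gene tested was also somewhat higher in tumours. With each library's median subtracted, 6 of the 10 rose (background 34.5%) and 1, Dll1, fell (background 33.3%), and the median was 0.72 for the 10 genes against 0.02 for all genes. Quantile normalization gave the same counts, 6 and 1, with backgrounds of 36.6% and 30.2%.

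The libraries were alike in total, at 462009 to 484712 FPKM, and a rough depth of 24400000 to 30800000 fragments each was worked out from the step sizes of low FPKM values. The smallest value among the 10 genes, 0.47 FPKM for Hey1 in adjacent sample 4, then corresponds to about 29 fragments. Tumours 2 and 4 lay nearest to adjacent tissue on the first principal component, at 28.1 and 42.6. The remaining tumours were at 64.8 to 68.3, and adjacent samples at -70.7 to -39.6. Both groups held abundant keratins of colonic epithelium, with Krt8 at 3011 ± 364 FPKM in adjacent tissue and 1484 ± 493 in tumours (SD, n = 5) and Krt19 at 2121 ± 256 and 1221 ± 233. In such bulk tissue, a change in the number of cells of a type and a change in RNA per cell cannot be told apart.

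The receptors are single-pass proteins whose genes lie on 3 chromosomes. In the mouse build GRCm38, Notch1 spans chromosome 2, 26457903 to 26516663, Notch2 chromosome 3, 98013527 to 98150361, Notch3 chromosome 17, 32120820 to 32166852, and Notch4 chromosome 17, 34564268 to 34588503. Notch1 was the most abundant receptor. It stood at 6.63, 4.64, 6.28, 5.30 and 8.79 FPKM in adjacent samples 1 to 5 and at 26.38, 12.75, 22.35, 19.04 and 19.43 FPKM in tumours 1 to 5. The lowest tumour value, in tumour 2, was still above the highest adjacent value, in sample 5. The log2 change was 1.51 (SE 0.19, limma adjusted p = 5.91e-05) and 1.18 with medians subtracted (adjusted p = 0.000159).

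Notch2, the second receptor of crypt progenitors, stood at 2.09, 1.66, 2.52, 1.35 and 3.45 FPKM in adjacent samples 1 to 5 and at 8.81, 6.49, 11.25, 7.31 and 10.20 FPKM in tumours 1 to 5. All tumours exceeded all adjacent samples, and tumours 2 and 4 were again the lowest tumours. Its log2 change of 1.62 (SE 0.19, limma adjusted p = 3.96e-05) was the largest of the 4 receptors on this scale, as was the 1.29 with medians subtracted. The order turned with quantile normalization (1.15, Notch1 1.17) and with a pseudocount of 5 (0.93, Notch1 1.13).

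Notch3, the receptor of mural cells, was the least abundant receptor in both groups. Adjacent samples 1 to 5 had 1.41, 1.15, 1.40, 0.69 and 1.43 FPKM, and tumours 1 to 5 had 3.96, 5.28, 3.46, 3.29 and 4.76 FPKM. No tumour came near the adjacent range, and the order of the tumours differed from that of Notch1 and Notch2: tumour 2, the lowest tumour for those 2 genes, was the highest for Notch3. By limma, the log2 change was 1.21 (SE 0.14, adjusted p = 4.22e-05). It was 0.88 once medians were subtracted (adjusted p = 0.00028) and 0.73 with quantile normalization. Fold changes on the log2(FPKM + 1) scale are understated for genes as low as this, and with a pseudocount of 0.1 the change was 1.71.

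Notch4, a receptor mainly of endothelium, stood at 3.09, 3.93, 3.15, 3.03 and 4.99 FPKM in adjacent samples 1 to 5 and at 4.73, 6.99, 4.28, 5.89 and 6.13 FPKM in tumours 1 to 5. Tumours 1 and 3 lay below adjacent sample 5, so the groups overlapped. The log2 change was 0.51 (SE 0.15, limma adjusted p = 0.00876), close to the 0.35 of the median gene. This call did not hold under 3 alternatives. Subtracting medians gave 0.18 (limma adjusted p = 0.325). Quantile normalization gave 0.04 (adjusted p = 0.842). Leaving out both tumours 2 and 4 gave 0.39 (adjusted p = 0.0502).

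The makeup of the receptor pool differed between the groups in a way that does not depend on scaling between libraries, since each share is taken within a library. The summed FPKM of the 4 receptors was 10.4 to 18.7 in adjacent samples and 31.5 to 43.9 in tumours. Notch4 made up 27.5% ± 4.62 of the sum in adjacent tissue and 15.0% ± 4.84 in tumours (SD, n = 5), with ranges of 23.4% to 34.5% and 10.4% to 22.2% that did not overlap. The share of Notch2 was 16.2% ± 2.51 and 22.7% ± 3.25, also without overlap, at 13.0% to 18.9% and 20.1% to 27.2%. Notch1 held the largest share in every library, 47.2% ± 4.04 in adjacent tissue and 51.2% ± 7.40 in tumours, and its ranges overlapped. So did those of Notch3, at 9.12% ± 1.83 and 11.0% ± 3.45. These shares are given as a description, with no test and no share of all genes beside them. They restate the gene changes above, since a share falls where the other receptors rise more. The same holds for the ligand shares below.

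**Figure D2:**
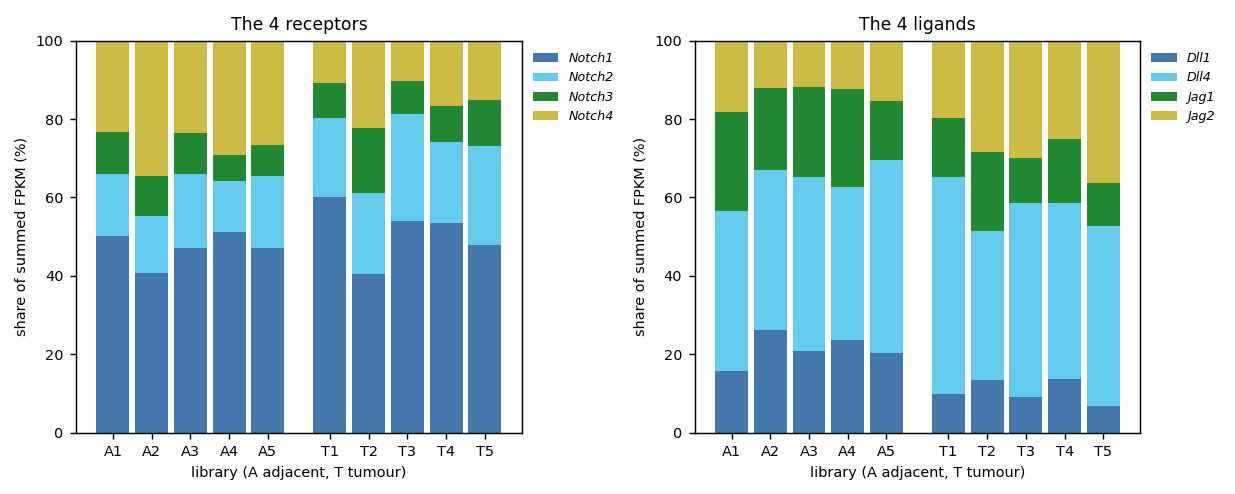
Share of the summed FPKM (y axis, percent) held by each of the 4 receptors (left) and each of the 4 ligands (right) in adjacent libraries A1 to A5 and tumour libraries T1 to T5. The Notch4 share is 23.4% or more in adjacent samples and 22.2% or less in tumours, and the Jag2 share is 18.3% or less in adjacent samples and 19.8% or more in tumours.

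The 4 receptor genes also differ in the DNA before their start sites. The stretches below run 5′ to 3′ from 250 bases before the RefSeq start (build GRCm38.p6) up to the first base of any annotated exon of the gene, and are shown because the 3 receptors that rose under each scaling all hold the GC box GGGCGG, the short motif bound by Sp and Krüppel-like factors, and Notch4 does not. Capitals mark each GC box on either strand. The search took the exact letters GGGCGG, and looser forms that the same factors may bind were not sought. The Notch1 stretch lies inside the span given above, since GENCODE also holds a transcript that starts further upstream.
Notch1, chr2:26503825-26504072, minus strand: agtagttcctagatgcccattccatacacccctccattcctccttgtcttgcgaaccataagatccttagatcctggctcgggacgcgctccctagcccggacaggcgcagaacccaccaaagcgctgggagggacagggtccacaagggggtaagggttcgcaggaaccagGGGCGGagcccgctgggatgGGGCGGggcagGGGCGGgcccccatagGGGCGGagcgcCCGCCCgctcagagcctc
Notch2, chr3:98013288-98013526, plus strand: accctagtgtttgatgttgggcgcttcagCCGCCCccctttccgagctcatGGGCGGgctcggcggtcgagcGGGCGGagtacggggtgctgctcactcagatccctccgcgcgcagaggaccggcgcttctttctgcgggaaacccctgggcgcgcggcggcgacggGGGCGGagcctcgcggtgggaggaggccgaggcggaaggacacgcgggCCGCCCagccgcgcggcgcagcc
Notch3, chr17:32166891-32167140, minus strand: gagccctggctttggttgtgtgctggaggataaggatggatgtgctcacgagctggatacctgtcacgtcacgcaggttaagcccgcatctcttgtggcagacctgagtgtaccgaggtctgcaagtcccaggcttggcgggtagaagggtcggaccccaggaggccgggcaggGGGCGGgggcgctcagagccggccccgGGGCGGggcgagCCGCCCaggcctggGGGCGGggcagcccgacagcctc
Notch4, chr17:34564045-34564267, plus strand: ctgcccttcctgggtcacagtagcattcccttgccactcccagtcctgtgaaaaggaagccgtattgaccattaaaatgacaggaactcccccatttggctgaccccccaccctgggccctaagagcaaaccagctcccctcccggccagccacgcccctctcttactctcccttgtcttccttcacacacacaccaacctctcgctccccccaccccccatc

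The Notch1, Notch2, Notch3 and Notch4 stretches held 5, 5, 4 and 0 GC boxes. Of the 10 genes, 8 had a promoter window in the RefSeq table, from 250 bases before to 50 after the start, and the 2 without one are Hes1 and Hey1. A GC box lay in the windows of Notch1, Notch2, Notch3, Dll4 and Jag2 and in none of those of Notch4, Dll1 (2 windows) and Jag1. It was found in 35.7% of all 32851 windows, and in 62.4% of windows of genes that rose, 58.1% of those that fell and 60.5% of those of tested genes that did not pass. GC boxes were thus nearly as common before genes that fell as before genes that rose. Windows with a GC box were also richer in G and C, at 63.7% (Dll4) to 86.0% (Jag2), than those without, at 55.7% (Jag1) to 62.7% (Dll1). The search covered 13 motifs on both strands, chosen with the values known. Beside the GC box these were the Rbpj site GTGGGAA, its shorter core TGGGAA, the Wnt effector sites CTTTGA and also CTTTGT, the E box CACGTG, the Hes-binding N box CACNAG, the Hippo effector site CATTCC, the Ets family sites GGAAGTG and, partly overlapping it, CCGGAA, the Stat site TTCCNGGAA, the Fos and Jun site TGANTCA and the cyclic AMP response element TGACGTCA. TGGGAA was in 25.6% of all windows and in none of the 9 windows of these genes. A match is a description of these letters and not evidence of binding.

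Among the ligands, Dll4 was the most abundant. It lies on chromosome 2, 119325784 to 119335962, acts in crypt progenitors and is the classic ligand of sprouting endothelium. Adjacent samples 1 to 5 had 6.77, 5.79, 8.63, 6.04 and 9.65 FPKM, and tumours 1 to 5 had 15.62, 10.00, 17.45, 11.19 and 18.44 FPKM. Tumour 2 lay only just above adjacent sample 5, and tumours 2 and 4 were the lowest, as for Notch2. The log2 change was 0.88 (SE 0.19, limma adjusted p = 0.00144) and 0.55 with medians subtracted (adjusted p = 0.0139).

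Jag2, a Serrate-type ligand on chromosome 12, 112907819 to 112929776, showed the largest change of the ligands. It was at 3.03, 1.71, 2.27, 1.91 and 2.99 FPKM in adjacent samples 1 to 5 and at 5.58, 7.49, 10.57, 6.20 and 14.63 FPKM in tumours 1 to 5. The groups were apart, and the tumours spread widely, with tumour 5 at more than the values of tumours 1 and 4 combined. The log2 change was 1.49 (SE 0.23, limma adjusted p = 0.000193) and 1.16 with medians subtracted.

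Its relative Jag1, on chromosome 2, 137081456 to 137116644, is the main Serrate-type ligand of vessel walls. It stood at 4.17, 2.95, 4.46, 3.85 and 2.99 FPKM in adjacent samples 1 to 5 and at 4.20, 5.28, 4.01, 4.04 and 4.36 FPKM in tumours 1 to 5. Adjacent sample 3 was above 4 of the 5 tumours. The log2 change of 0.21 (95% interval -0.05 to 0.47, limma adjusted p = 0.13) did not pass, and its sign turned under both other scalings, to -0.12 when medians were subtracted (adjusted p = 0.359) and to -0.28 after quantile normalization (adjusted p = 0.0554).

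Dll1, a ligand of secretory progenitors in the crypt, lies on chromosome 17, 15367354 to 15376872. Adjacent samples 1 to 5 had 2.61, 3.70, 4.02, 3.66 and 3.96 FPKM, and tumours 1 to 5 had 2.81, 3.51, 3.23, 3.36 and 2.74 FPKM. Adjacent sample 1 was the lowest of all 10 libraries, and the other 4 adjacent samples were above every tumour. The log2 change of -0.15 (95% interval -0.39 to 0.10, limma adjusted p = 0.247) did not pass. Dll1 fell under 3 alternatives. Subtracting medians gave -0.48 (limma adjusted p = 0.00498). Quantile normalization gave -0.64 (adjusted p = 0.000775). Leaving out adjacent sample 1, with no further scaling, gave -0.23 (adjusted p = 0.0474).

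Within the ligand pool, whose summed FPKM was 14.2 to 19.6 in adjacent samples and 24.8 to 40.2 in tumours, the share of Jag2 was 13.9% ± 2.80 in adjacent tissue and 27.9% ± 6.16 in tumours (SD, n = 5). That of Dll1 was 21.3% ± 3.92 and 10.6% ± 2.88. Neither pair of ranges overlapped, at 11.7% to 18.3% and 19.8% to 36.4% for Jag2 and 15.7% to 26.2% and 6.82% to 13.6% for Dll1. Dll4 held the largest share in every library, with means of 42.9% ± 4.06 and 46.8% ± 6.34, and the ranges of Jag1, 21.8% ± 4.06 and 14.7% ± 3.79, overlapped. Taken within each family, the ratio of Jag2 to Jag1 was 0.496 to 1.00 in adjacent samples and 1.33 to 3.36 in tumours, and the ratio of Dll4 to Dll1 was 1.57 to 2.59 and 2.85 to 6.73. Jag2 was at or below Jag1 in the 5 adjacent samples and above it in the 5 tumours.

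The 2 target genes differed in the size of their change. Hes1, the repressor of Atoh1 in crypt progenitors (chromosome 16, 30064384 to 30067796), was the most abundant of the 10 genes in every library. It was at 44.49, 40.24, 39.77, 49.90 and 51.74 FPKM in adjacent samples 1 to 5 and at 48.03, 43.89, 55.36, 51.79 and 60.21 FPKM in tumours 1 to 5. Adjacent samples 1, 4 and 5 lay within the tumour range. The log2 change of 0.19 (95% interval -0.04 to 0.42, limma adjusted p = 0.112) did not pass, was -0.14 with medians subtracted (adjusted p = 0.244), and passed without tumour 2 (0.25, adjusted p = 0.0403). The upper end of the interval is a change of 0.42, below the log2 changes of Notch1, Notch2, Notch3, Jag2, Dll4 and Hey1.

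Hey1, a repressor of the same family with a large role in vessels (chromosome 3, 8663359 to 8667256), was the least abundant of the 10 genes in adjacent tissue. It stood at 0.99, 0.57, 1.06, 0.47 and 1.34 FPKM in adjacent samples 1 to 5 and at 5.22, 2.05, 9.08, 5.21 and 9.75 FPKM in tumours 1 to 5. Tumour 2 was nearest to adjacent tissue and tumours 3 and 5 were farthest. The log2 change was 1.83 (SE 0.31, limma adjusted p = 0.000356), the largest of the 10 genes on this scale. With a pseudocount of 5 it was 0.89, below the 1.13 of Notch1 and the 0.93 of Notch2. Subtracting medians gave 1.50 (adjusted p = 0.00112), and a pseudocount of 0.1, which shrinks low genes less, gave 2.59. The ratio of Hey1 to Hes1 was 0.00942 to 0.0267 in adjacent samples and 0.0467 to 0.164 in tumours.

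**Figure D3:**
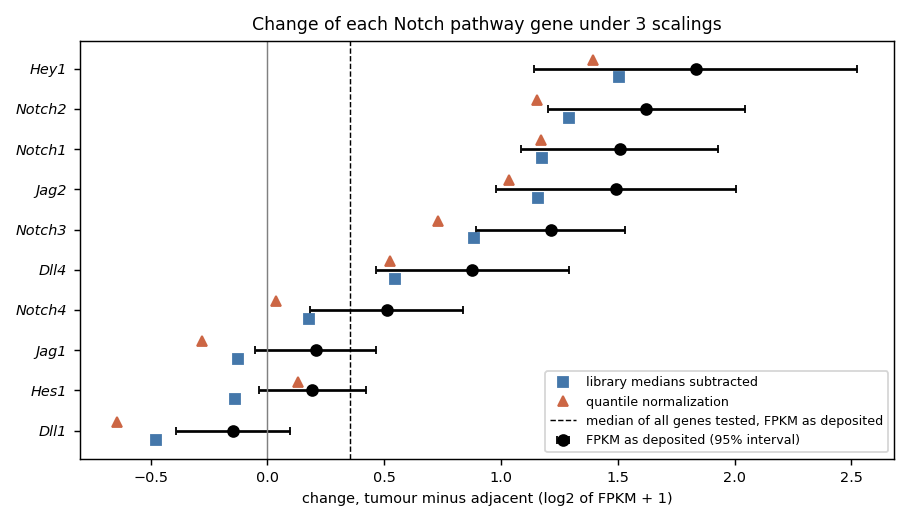
Change of each gene (x axis, tumour minus adjacent, log2 of FPKM + 1) with its 95% interval on FPKM as deposited (black), with library medians subtracted (blue squares) and with quantile normalization (orange triangles); the dashed line is the median of all genes tested, 0.35. The 6 genes from Dll4 to Hey1 stay above 0 with each scaling, Notch4 moves to 0.18 and 0.04, and Dll1 to -0.48 and -0.64.

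The order of the levels shifted between the groups. In adjacent tissue Hes1 came first at a mean of 45.2 FPKM, then Dll4 and Notch1, whose ranges overlapped, then Jag1, Notch4 and Dll1 at 3.68, 3.64 and 3.59 FPKM, which did not differ beyond their spread, then Jag2, Notch2, Notch3 and Hey1, each overlapping the next. In tumours Hes1 was again apart at 51.9 FPKM, and each later gene overlapped the next in the order Notch1, Dll4, Jag2, Notch2, Hey1, Notch4, Jag1, Notch3 and Dll1. Jag2 was the seventh gene in adjacent tissue and the fourth in tumours, and Dll1 was the sixth and the last.

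Some of these genes share exonic sequence with a gene on the other strand, and the library kit (TruSeq RNA v2) does not mark strand. In the GENCODE annotation an opposite gene covers 867 of 4219 exonic bases of Dll1, 488 of 8089 of Notch3, 214 of 3852 of Dll4, and 1068 and 414 (2 genes) of 14232 of Notch1. On the same strand, Gm42820 shares 541 of 10782 exonic bases of Notch2. Reads from the partners cannot be told apart there. Gm14207, opposite Dll4, is in the table at 2.18 to 5.57 FPKM.

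Markers of vessels and stroma were also higher in tumours. All list counts on FPKM as deposited, here and in what follows, stand beside 57.2% of all tested genes that rose and 19.3% that fell. List counts with medians subtracted stand beside 34.5% that rose and 33.3% that fell. Of 10 endothelial markers without Notch genes, 10 rose (median change 1.27), and none was at 0 in every library. Their summed level was 17.5 to 41.6 FPKM in adjacent samples and 74.2 to 108 FPKM in tumours. Pecam1, an adhesion molecule of endothelium, was at 6.53 ± 1.73 and 16.2 ± 3.24 FPKM (SD, n = 5), and Egfl7, a secreted endothelial protein, at 4.53 ± 1.68 and 14.6 ± 1.30 FPKM. Of 10 mural cell markers 7 rose, a share near that of all genes. Among them were the smooth muscle genes Acta2, by 1.74 (SE 0.27), and Tagln, by 1.08 (SE 0.33, limma adjusted p = 0.0577 with medians subtracted and 0.0633 without both tumours 2 and 4). The 3 that did not pass are muscle genes as well: Myh11 (log2 change 0.64), Cnn1 (0.44) and Des (0.33). The summed level of the 10 mural markers was 48.3 to 120 FPKM in adjacent samples and 156 to 230 FPKM in tumours. Of 8 fibroblast markers 8 rose, with a median of 2.26. The fibroblast sum was 98.4 to 252 and 865 to 1240 FPKM, with Col3a1 at 52.9 ± 21.0 and 268 ± 67.6 FPKM and Fn1 at 31.9 ± 17.7 and 236 ± 33.6 FPKM. Tumour 2, the highest tumour for Notch3, Notch4, Jag1 and Dll1, also had the highest tumour mean of the endothelial list (3.37 on the log2(FPKM + 1) scale, others 2.87 to 3.24) and of the mural list (3.79, others 3.32 to 3.77). This was not particular to vessel lists. Tumour 2 was also the highest tumour for the fibroblast (6.66), epithelial (9.22), absorptive colonocyte (4.06) and leukocyte (4.36) lists. For the goblet list tumour 4 was higher, at 8.95 against 8.78. Tumour 2 was the lowest tumour for Notch1, Notch2, Dll4, Hes1 and Hey1, and had the lowest mean of the crypt stem cell list (5.26, others 5.72 to 6.11). The part of these cells in the Notch changes was not tested.

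Set against the endothelial list within each library, the vessel genes did not move alike. Notch4 lay 0.35 ± 0.42 above the list mean in adjacent tissue, on the log2(FPKM + 1) scale, and at -0.40 ± 0.15 in tumours (SD, n = 5), with ranges of -0.17 to 0.74 and -0.63 to -0.23 that did not overlap. Dll4 was 1.20 ± 0.29 above the list mean in adjacent tissue and 0.82 ± 0.47 above it in tumours, and Hey1 was at -0.95 ± 0.23 and -0.38 ± 0.82, both with overlapping ranges. Notch1, at 1.00 ± 0.35 and 1.25 ± 0.55, and Jag2, at -0.11 ± 0.29 and 0.13 ± 0.46, overlapped as well. Notch3 against the mural list was at -1.38 ± 0.38 and -1.25 ± 0.24, which overlapped. Of these 6 comparisons with vessel lists, that of Notch4 separated the groups. How many of all genes would separate in the same way was not worked out. The endothelial list rose by a median of 1.27, so a gene with the 0.35 of the median gene also drops against it. Jag1, also a vessel gene, was not among the 6. Its log2 change was 0.21, beside 0.51 for Notch4 and a median of 1.27 for the endothelial list.

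Epithelial markers went the other way. Of 7 general epithelial markers 6 fell and 1 rose, with a summed level of 6734 to 8320 FPKM in adjacent samples and 3753 to 5959 FPKM in tumours. All 7 goblet cell markers fell, from a sum of 15140 to 18560 FPKM to a sum of 1461 to 4291 FPKM, with Zg16, a lectin of goblet granules, at 4560 ± 1122 and 266 ± 354 FPKM and Tff3, a trefoil peptide, at 2952 ± 483 and 561 ± 376 FPKM. All 7 absorptive colonocyte markers fell, with Car4 at 776 ± 147 and 11.6 ± 15.0 FPKM and Car1 at 580.0 ± 191 and 123 ± 114 FPKM. The list's sum was 2021 to 3097 FPKM in adjacent samples and 31.7 to 396 FPKM in tumours. All 5 crypt stem cell markers rose, with Axin2 at 22.3 ± 9.57 and 120 ± 37.2 FPKM and Smoc2 at 22.8 ± 10.2 and 89.2 ± 5.20 FPKM, and a summed level of 47.3 to 125 and 249 to 418 FPKM. Hes1 stood at -3.92 ± 0.20 relative to the epithelial list in adjacent tissue and at -3.10 ± 0.40 in tumours, with overlapping ranges. Dll1 stood at -9.16 to -8.52 relative to the goblet list in adjacent tissue and at -6.83 to -4.90 in tumours, without overlap. The goblet list mean itself was 10.83 to 11.14 in adjacent samples and 6.98 to 8.95 in tumours. Any gene with an unchanged level would therefore separate too, and the separation is not a result about Dll1. Of 8 leukocyte markers 6 rose and 1 fell, with summed levels of 26.0 to 158 and 205 to 460 FPKM, and S100a9 and S100a8, calcium-binding proteins of neutrophils, at 18.2 ± 26.7 and 130 ± 64.7 FPKM and 19.8 ± 23.4 and 113 ± 54.2 FPKM. The part of epithelium and leukocytes in the Notch changes was likewise not tested.

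The rest of the pathway was taken from 7 lists with 82 symbols, of which 80 are in the table and 62 passed the filter. Of these 35 rose and 14 fell, with a median of 0.37, beside 57.2% and 19.3% and a median of 0.35 for all genes tested. With medians subtracted 24 rose and 22 fell, beside 34.5% and 33.3% of all genes tested. The lists therefore moved much like the table as a whole, and differed among themselves.

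**Figure D4:**
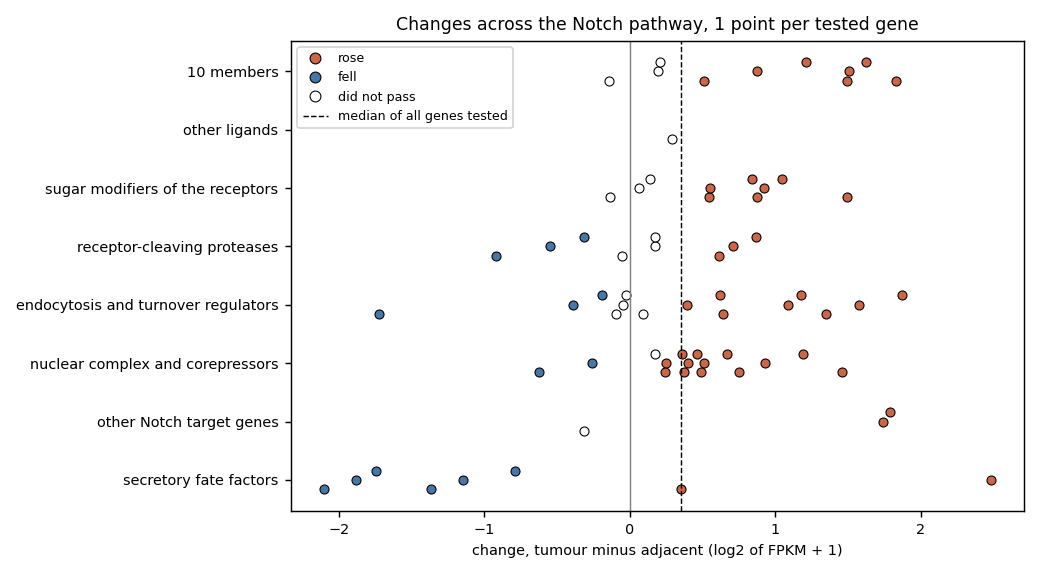
Change of each tested gene (x axis, tumour minus adjacent, log2 of FPKM + 1) for the 10 genes and 7 lists of other Notch pathway genes (y axis, points staggered for visibility), filled where the gene rose or fell and open where it did not pass. Of the secretory fate factors 6 fell and 2 rose, and of the nuclear complex and corepressors 13 rose and 2 fell.

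Of the sugar modifiers, enzymes that glycosylate the receptors and tune their response to ligands, 10 passed the filter and 7 rose (5 rose and 3 fell with medians subtracted). Lfng, the Fringe enzyme that favours Delta over Serrate-type ligands, was at 9.18 ± 2.14 and 28.3 ± 8.48 FPKM (SD, n = 5) and rose by 1.49 (SE 0.22, limma adjusted p = 0.000148), and Kdelc1, an O-glycosyltransferase, rose by 1.05 (SE 0.10). Of 9 receptor-cleaving proteases 3 rose and 3 fell. Furin, which cuts the receptors during their maturation, rose by 0.87 (SE 0.14) and Adam10, the metalloprotease that cuts the ligand-bound receptor, by 0.71 (SE 0.08). Aph1a, a scaffold subunit of gamma-secretase, fell by 0.55 (SE 0.10).

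Of 15 regulators of endocytosis and turnover 8 rose and 3 fell (7 and 6 with medians subtracted). The paralogous ubiquitin ligases Neurl1a and Neurl1b, of the Neuralized family that acts on ligands, moved in opposite directions: Neurl1a was at 2.38 ± 0.81 and 11.4 ± 3.19 FPKM (log2 change 1.87, SE 0.21) and Neurl1b at 10.5 ± 2.77 and 2.42 ± 0.52 FPKM (log2 change -1.73, SE 0.17). Dtx3, of the Deltex family, rose by 1.58 (SE 0.18), and Numb, an inhibitor of the receptors, fell by 0.39 (SE 0.07). Of 16 genes of the nuclear complex and its corepressors 13 rose and 2 fell, but 6 rose with medians subtracted. Tle3, a Groucho-type corepressor, rose by 1.46 (SE 0.23), while Tle4, a relative of Tle3, fell by 0.63 (SE 0.12) and the acetyltransferase gene Kat2b by 0.26 (SE 0.09).

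Of 12 other target genes only 3 passed the filter, since Hes5, Hes7, Hey2, Heyl, Olfm4 and others had means below 1 FPKM. Low as they were, Heyl (0.40 and 1.37 FPKM) and Hey2 (0.11 and 0.34 FPKM) had every tumour above every adjacent sample, as did Il2ra. These genes are named after their values were seen. Hes5, Hes7, Olfm4, Ptcra and Gata3 had overlapping groups. The 46.5% of all genes tested with tumours above adjacent samples does not cover genes below the filter. Dtx1 was lower in tumours, at 0.74 and 0.42 FPKM, with overlapping groups. With no filter 5 of the 12 rose and 0 fell. Their median change was then 0.17, beside 0.15 for all genes, and the shares of all genes given above do not apply to that count. Rises also far outnumbered falls among all genes with no filter, so the count alone does not set these 12 genes apart. Of the 3 that passed the filter, Hes6 was at 82.7 ± 23.3 and 295 ± 93.6 FPKM and rose by 1.79 (SE 0.28, limma adjusted p = 0.000204). Hes6 is a relative that opposes Hes1, and is not taken here as a measure of Notch activity. The adhesion receptor Cd44, also a Wnt target, rose by 1.74 (SE 0.20). The third, Nrarp, a feedback inhibitor named here after its value was seen, was at 10.5 ± 2.58 and 8.10 ± 1.11 FPKM and did not pass (log2 change -0.31, adjusted p = 0.0776), but fell with medians subtracted (-0.64, adjusted p = 0.00281). Of 5 other ligands 1 passed the filter, Dlk1, at 3.24 ± 3.46 and 3.79 ± 2.38 FPKM, which did not pass the test (log2 change 0.29, adjusted p = 0.584).

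Of 8 tested secretory fate factors, transcription factors of the goblet, enteroendocrine and tuft lineages and their progenitors, 6 fell and 2 rose, with a median of -1.26. Atoh1, the factor repressed by Hes1, was at 39.6 ± 4.00 and 9.02 ± 3.74 FPKM and fell by 2.10 (SE 0.23, limma adjusted p = 3.47e-05), with no overlap, and Spdef, a goblet cell factor, at 59.8 ± 14.8 and 17.3 ± 11.0 FPKM (log2 change -1.88, SE 0.35). Sox4, a progenitor factor, rose by 2.49 (SE 0.35), and Foxa3 by 0.35 (SE 0.10), which did not hold once medians were subtracted (adjusted p = 0.86) or after quantile normalization (adjusted p = 0.0854). Atoh1 fell by 2.10 while the interval of the Hes1 change ran from -0.04 to 0.42. The part of Hes1 in the change of Atoh1 was not tested. Goblet cell markers fell with Atoh1, and their part in its change was not tested.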

How the data were processed

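RNA was profiled in 5 tumour and 5 adjacent libraries (oligo-dT selection, TruSeq RNA v2, per the labels' protocols). The deposited table gives FPKM for 24525 genes, computed by the authors. The sources used here do not say which program made it: Cufflinks 2.2.1, Salmon 0.8.2, TopHat2 2.1.0 and the build mm10 are among the names in the submitters' processing notes. One line of text in place of values was left out. Groups follow the sample type label.

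From these values log2(FPKM + 1) was fitted with limma 3.58.1 (R 4.3.3) with group as the only term, an intensity trend and robust empirical Bayes, two-sided, over the 13016 genes whose mean reached 1 FPKM. The fit was tested on simulated data. Depth was estimated from low values of genes with 1 transcript length (70.0% to 77.8% of these within 0.15 of a whole fragment, against at most 41.0% with lengths shuffled). Gene positions are GENCODE M21, and promoter sequences are RefSeq's. The 10 genes, all lists and all rules were chosen with earlier results of these data known. Named beside the 10 genes are up to 2 largest rises and 2 largest falls of each pathway list, or its 2 most abundant genes if none passed. Each marker list is represented by its 2 most abundant genes. Some genes that this rule names are not reported here. Alternatives were other pseudocounts, filters and scalings, a replicate block, limma without trend, and leaving out libraries.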

Additional observations from a re-analysis of the deposited data

Results flagged for a closer look

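Among 40 sets of 5 values (levels of the 10 genes, summed levels and shares, in each group), 2 had a sample that stood far from the other 4, and chance alone flags about 1 in 20 such sets. Dll1 was at 2.61 FPKM in adjacent sample 1, with the other adjacent samples at 3.66 to 4.02 FPKM. Jag1 was at 5.28 FPKM in tumour 2, with the other tumours at 4.01 to 4.36 FPKM.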

How the results depend on the processing

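Scaling changed the balance of calls. With medians subtracted 4486 genes rose and 4329 fell, 1 of the 10 Notch genes fell, and 22 other pathway genes fell. Quantile normalization gave 4759, 3934, 1 and 22. Main counts were 7442, 2509, 0 and 14. With a mean of at least 5 FPKM required, 5 of the 10 genes were tested and 4 rose. Signs turned for Jag1 (-0.12 and -0.28) and Dlk1 (-0.04 and -0.20) with medians subtracted and quantile normalization, and for Hes1 with medians subtracted (-0.14). Leaving out 1 library at a time gave 7051 to 7583 rises and 2321 to 2609 falls over all genes, 7 to 8 rises and 0 to 1 falls among the 10 genes, and 33 to 37 rises and 11 to 14 falls among other pathway genes. Over those fits the adjusted p reached at most 0.000256 for Notch1, 0.000174 for Notch2, 0.000188 for Notch3, 0.0235 for Notch4, 0.00469 for Dll4, 0.000774 for Jag2 and 0.00138 for Hey1. Without both tumours 2 and 4, an alternative added after seeing the data, 6 of the 10 genes rose, beside 7427 rises and 2609 falls over all genes. The replicate block, with the number in the title as block, gave 7534 rises and 2533 falls over all genes and 8 rises among the 10 genes, Hes1 being added (0.19, adjusted p = 0.0459). Deviations of like-numbered samples correlated at 0.022 to 0.422, and tumour 1 correlated best with adjacent sample 5, so the numbers were not taken to pair the samples. Pseudocounts of 0.1 and 5, no filter, and limma without trend kept 7 rises among the 10 genes. The smallest value among the 10 genes rests on about 29 fragments, by the rough depth estimate.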

Other observations

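The genes whose pattern over the 10 libraries was most like those of the 10 were sought by the root mean square difference of log2(FPKM + 1) values after subtracting each gene's mean, a description with no test. Nearest to Notch1 was Plscr3, a phospholipid scramblase gene (difference 0.07, against a median of 0.66 over all candidates), at 10.3 FPKM in adjacent tissue and 31.2 in tumours. Nearest to Notch2 was Adcy3, an adenylate cyclase gene (0.09), at 0.78 and 4.59 FPKM. Olfm1 was nearest to Notch3 (0.08), Wee1, a cell cycle kinase gene, to Dll4 (0.09), and Rhobtb3 to Jag2 (0.12). Hey1 had the least close neighbour, Nxpe3 (0.18). The nearest gene was Tcp11l2 for Notch4 (0.14), Net1 for Dll1 (0.10) and Sirt4 for Hes1 (0.06).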
